A study of Mus musculus with 9 samples.

Results

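The 10 cadherins described here are *Cdh1*, *Cdh2*, *Cdh3*, *Cdh4*, *Cdh5*, *Cdh6*, *Cdh11*, *Cdh13*, *Cdh16* and *Cdh17*, taken by symbol from the 55276 gene symbols of the count table. They cover E-cadherin and N-cadherin, the pair named in the cadherin switch, together with the other cadherins of epithelial, vascular and mesenchymal cells. Of the 10, 9 passed the filter on low counts and were tested, and *Cdh4* did not pass it. The samples are PPTR cells, cultured from mouse intrahepatic cholangiocarcinoma (iCCA), a cancer of the bile ducts inside the liver. The cells came from liver cancer of mice with *Prom1*-driven CreERT2, other floxed alleles and a ZsGreen reporter at *Rosa*, and every group shares that genotype and medium. *Vcam1* ctrl cells, which the labels call WT, were compared with *Vcam1* KO1 and *Vcam1* KO2, each of which is 1 single-cell clone made with Cas9 and a guide against *Vcam1*. RNA of each group was sequenced in 3 libraries, 9 in all, to ask which pathways change when the adhesion molecule Vcam1 is lost.

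Cadherins are calcium-dependent adhesion proteins that hold neighbouring cells together. The tails of the classical members bind catenins, which tie the junction to actin, and E-cadherin is the cadherin of epithelia such as the bile duct. In the cadherin switch of an epithelial-to-mesenchymal transition (EMT), E-cadherin falls while N-cadherin or another mesenchymal cadherin takes its place.

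Levels are in CPM, a gene's counts relative to library size with TMM scaling. *Vcam1* itself, the gene cut by the guide, averaged 266 ± 56.5 CPM (SD, n = 3) in ctrl, 106 ± 19.1 in KO1 and 100 ± 17.9 in KO2 libraries, so that its RNA was lower in both clones without being at 0. The paper reports that quantitative RT-PCR and flow cytometry showed loss of Vcam1 in both clones. Counts of RNA do not measure the protein. Library totals ran from 53415907 to 125223073 counts. Libraries of 1 group differed by 35.8 to 275 times the variance that counting alone gives per gene, so none was a repeat of another. KO1 replicate 3 stood farthest from its group, at 240 and 275 against 36.0 between the other KO1 libraries, and without it the numbers of cadherins called below were the same in each comparison. Of the biliary markers, *Krt19* averaged 2291 CPM in ctrl and 0.0596 and 0.149 in the clones, while *Sox9* did not pass the test in either clone. The 11 listed biliary markers summed to 13105 to 14830 CPM in ctrl, 10611 to 11072 in KO1 and 7632 to 11078 in KO2. That sum hides the change of most members. Of the 9 tested, 6 were lower and 1, *Spp1*, higher in each clone, with a median log2 fold change of -9.37 in KO1 and -10.35 in KO2. Over all tested genes 30.0% were lower and 29.9% higher in KO1, and 26.1% and 25.3% in KO2. Among 12 stellate cell and fibroblast markers, 10 passed the filter on low counts. With both clones pooled, 8 rose and 0 fell past the test threshold, beside 21.7% and 21.2% of all tested genes. In KO1 by itself 7 rose and 1 fell, beside 29.9% and 30.0% of all tested genes. In KO2 by itself 8 rose and 0 fell, beside 25.3% and 26.1%. The summed level of the 12 markers was 432 to 837 CPM in ctrl, 12560 to 15969 in KO1 and 6769 to 9108 in KO2. *Col1a1* and *Postn* made up much of that sum, *Lrat* and *Lum* were at 0 in ctrl, and the part of these markers in the cadherin results was not tested. In bulk RNA, fewer cells of a type and less RNA per cell cannot be told apart. Effects of *Vcam1* loss and of picking 1 cell as the founder of a clone cannot be told apart either, and both clones were compared with the same 3 ctrl libraries.

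E-cadherin (*Cdh1*), *Cdh11* and *Cdh17* were at under 1% of their mean ctrl level in both clones, *Cdh6* and *Cdh16* were lower with more of their RNA remaining, and no cadherin rose in both. *Cdh1*, *Cdh6*, *Cdh11*, *Cdh16* and *Cdh17* were lower in each clone, and the smallest of these 10 changes was the 8.37-fold lower level of *Cdh16* in KO1. *Cdh2* was higher in KO1, did not pass the test in KO2, and differed between the clones. Among the 9 tested cadherins, 0 were higher and 5 lower in the 6 clone libraries together, where 43.0% of all 17672 tested genes were called, 21.7% higher and 21.2% lower. In KO1 2 were higher and 7 lower, against 59.9% of all genes called (29.9% higher, 30.0% lower). In KO2 0 were higher and 5 lower, against 51.4% of all genes called (25.3% higher, 26.1% lower). The 5 that were lower in both clones compare with 19.4% of all tested genes. The median log2 fold change of the 9 was -3.69 in KO1 and -3.87 in KO2, where that of all tested genes was 0.02 and 0.00. Here and below, a call is an adjusted p under 0.05 in the quasi-likelihood test of edgeR, with the Benjamini-Hochberg adjustment taken over all tested genes. All KO1 libraries lay above all ctrl libraries for 2 members and below them for 6 (32.9% and 33.1% of all tested genes), and all KO2 libraries above for 0 and below for 6 (30.7% and 31.4%). Between the clones 3 members were higher and 1 lower in KO1, where 38.7% of all tested genes were called (20.2% higher, 18.5% lower), and 3 lay above and 4 below without overlap (28.6% and 26.2%).

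**Figure D1:**
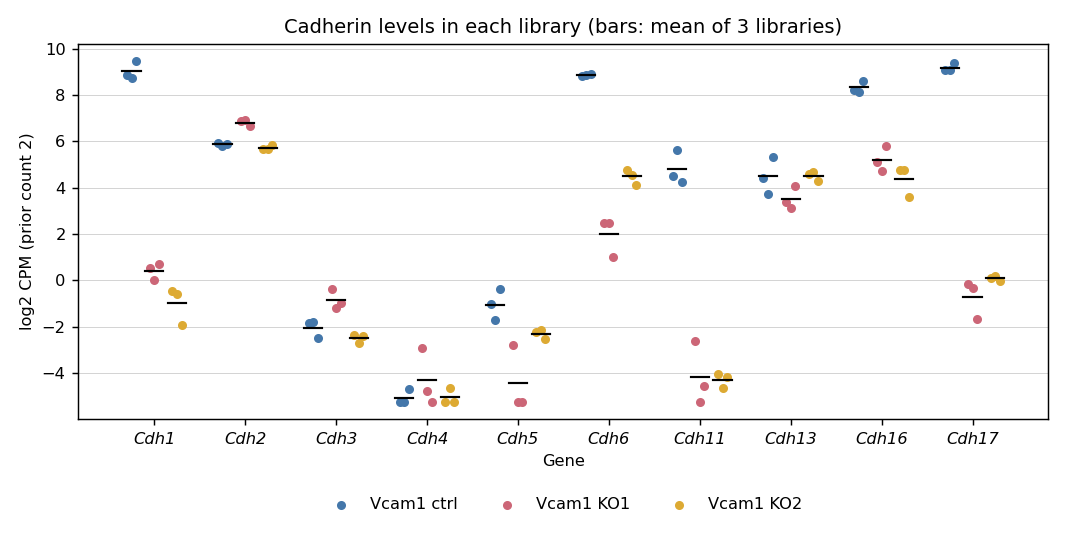
Levels of the 10 cadherins in each library, on a log2 CPM scale with a prior count of 2; points are the 3 libraries of a group and bars their mean. *Cdh1*, *Cdh6*, *Cdh11*, *Cdh16* and *Cdh17* have all clone libraries below all ctrl libraries, *Cdh2* lies highest in KO1, and *Cdh4* is near the bottom of the scale in every library.

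*Cdh1* encodes E-cadherin and lies on chromosome 8 of mouse (GRCm38, 106603351 to 106670246, plus strand). Its level was 466, 424 and 709 CPM in the ctrl libraries, 1.41, 0.991 and 1.61 in KO1 and 0.702, 0.636 and 0.237 in KO2. Ctrl and clone libraries did not overlap, and each KO1 library lay above each KO2 library. The log2 fold change was -8.65 ± 0.43 (SE) in KO1, a 401-fold lower level, and -9.99 ± 0.46 in KO2, with adjusted p of 3.8e-07 and 3.9e-07 in edgeR's quasi-likelihood test. The remaining RNA was counted 290 times over the KO1 libraries and 102 times over the KO2 libraries, against 137499 times in ctrl, which is 0.251% and 0.0986% of the mean ctrl level. Between the clones *Cdh1* was higher in KO1, by 1.34 ± 0.37 on the log2 scale (edgeR adjusted p = 0.019). That difference did not pass the threshold without KO1 replicate 1 (adjusted p = 0.054), KO1 replicate 3 (0.052) or KO2 replicate 3 (0.051), nor with limma-voom (0.071), the test the study used.

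*Cdh2* encodes N-cadherin, the cadherin of neural and mesenchymal cells that is usually read as the gain in the switch. Its level was 61.4, 55.4 and 59.9 CPM in ctrl, 117, 120 and 101 in KO1 and 51.0, 51.4 and 57.5 in KO2. It was thus well above the detection limit in ctrl, all KO1 libraries lay above it, and the KO2 libraries overlapped with ctrl. The level was 1.91-fold higher in KO1 (log2 fold change 0.93 ± 0.10, edgeR adjusted p = 5.2e-05) and 0.905 times ctrl in KO2 (-0.14 ± 0.10, adjusted p = 0.27). The clones differed by 1.08 ± 0.10 on the log2 scale (edgeR adjusted p = 8.9e-05). With both clones together the log2 fold change was 0.49 ± 0.32 and did not pass the test (adjusted p = 0.24), since the clone difference counts as spread there. When the contrasts of the clones were averaged instead, it was 0.39 with an adjusted p of 0.0045.

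The other members of the classical type I group were low. *Cdh3*, P-cadherin of basal epithelial layers, had 0.255, 0.258 and 0.152 CPM in ctrl, 0.748, 0.407 and 0.479 in KO1 and 0.171, 0.127 and 0.163 in KO2. KO1 libraries were the highest and the other groups overlapped. *Cdh3* was 2.44-fold higher in KO1 (log2 fold change 1.29 ± 0.37, edgeR adjusted p = 0.013), lay at -0.53 ± 0.39 in KO2 (adjusted p = 0.29) and was 3.51-fold higher in KO1 than in KO2 (1.81 ± 0.38, adjusted p = 0.0054). These rest on 58 counts in all ctrl libraries, 119 in KO1 and 30 in KO2, and the KO1 call did not hold without KO1 replicate 1 (adjusted p = 0.068). *Cdh4*, R-cadherin, first known from the retina, had 1 count in all ctrl libraries, 8 in KO1, of which 7 were in replicate 1, and 1 in KO2, and was not tested.

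Of the type II group and its relatives, *Cdh6* had the highest level per kilobase of exon in ctrl. *Cdh6*, K-cadherin of the developing kidney and of other epithelia, lies on chromosome 15 (GRCm38, 13028701 to 13173675, minus strand). Its level was 458, 466 and 488 CPM in ctrl, 5.60, 5.56 and 1.99 in KO1 and 27.1, 23.7 and 17.6 in KO2. The 3 groups did not overlap, and KO2 kept more of it than KO1, with 4.85% of the mean ctrl level against 0.931%. The log2 fold change was -6.74 ± 0.41 in KO1 (107-fold lower) and -4.37 ± 0.37 in KO2 (20.6-fold lower), with edgeR adjusted p of 1.2e-06 and 1.1e-05. *Cdh6* was 5.18-fold lower in KO1 than in KO2 (-2.37 ± 0.34, edgeR adjusted p = 7.7e-04), the reverse of the order of the clones for *Cdh1*.

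*Cdh6* was the only one of the 10 cadherins matched in the RefSeq promoter table used here (GRCm38.p6), and its upstream sequence is shown because E-boxes, with the letters CANNTG, are the sites that the Snail, Zeb and Twist repressors are known to bind. The 250 bases before its start, on the minus strand at chr15:13173676-13173925, read 5′ to 3′ with the E-box in capitals:
Cdh6 promoter: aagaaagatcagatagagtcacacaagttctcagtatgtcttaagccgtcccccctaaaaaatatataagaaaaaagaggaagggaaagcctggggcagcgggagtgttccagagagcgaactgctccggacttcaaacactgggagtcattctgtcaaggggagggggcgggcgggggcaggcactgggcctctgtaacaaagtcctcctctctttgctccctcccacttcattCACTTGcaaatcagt
Searched on both strands, the window held 1 E-box, whose first base lies 15 bases before the start, and 66.2% of the 32851 promoter windows of that length held at least 1. The narrower letters CAGGTG were in 17.2% of windows and not in this one. The letters GGGCGG occurred 2 times, overlapping each other, and were in 32.7% of windows, while TATAAA (12.4% of windows) and CCAAT (33.8%) were absent. The GC content of 51.2% was near the median of 52.4% over all windows. These matches describe letters and not bound sites.

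*Cdh11*, OB-cadherin of osteoblasts and fibroblasts, is a mesenchymal cadherin that moved with the epithelial ones here. It had 22.5, 50.0 and 18.8 CPM in ctrl, from 2827, 2711 and 1490 counts. The KO1 libraries held 9, 0 and 1 counts and the KO2 libraries 2, 1 and 2. Every clone library was at or near the detection limit of 3 counts except KO1 replicate 1. Counts in ctrl were 612 times those in KO1 after scaling for depth (95% exact binomial interval 333 to 1277) and 1068 times those in KO2 (458 to 3291), where the intervals cover counting error only. KO1 replicate 1 held 9 of the 10 KO1 counts, and without it the fitted log2 fold change in KO1 went from -9.33 to -11.92. The edgeR adjusted p was 9.7e-06 in KO1 and 1.1e-05 in KO2. At these counts a difference between the clones was not detectable (log2 0.80 ± 1.31, edgeR adjusted p = 0.66), and its sign turned to -1.79 without KO1 replicate 1. Its span in the annotation overlaps 4 other genes on the same strand, so that reads may be shared with them.

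*Cdh5* encodes VE-cadherin, the cadherin of endothelial junctions. It was counted 58, 15 and 59 times in ctrl, 8, 0 and 0 times in KO1 and 11, 14 and 10 times in KO2, or 0.277 to 0.746, 0 to 0.120 and 0.148 to 0.198 CPM. All clone libraries lay below all ctrl libraries, and all KO1 libraries below all KO2 libraries. The log2 fold change was -3.69 ± 0.95 in KO1 (edgeR adjusted p = 0.0076) and -1.48 ± 0.79 in KO2, where it did not pass the test (adjusted p = 0.15), and the clones did not differ past the threshold (-2.21, adjusted p = 0.11). All KO1 counts came from replicate 1, and without that library the log2 difference between the clones was -6.79 (adjusted p = 0.0047) and KO2 passed the test against ctrl (adjusted p = 0.032). The clones also differed with limma-voom (-3.42, adjusted p = 0.023), and KO2 also passed the test with 6 libraries only (adjusted p = 0.023). Among the 11 endothelial markers *Sox17* was at 0 in every group and *Erg* and *Cldn5* at 0 in ctrl. Of the 4 tested, 2 (*Esam* and *Egfl7*) were lower in the clones together and in each clone. Over all tested genes 21.2% were lower together, 30.0% in KO1 and 26.1% in KO2. The endothelial list summed to 17.2 to 23.0 CPM in ctrl, 5.46 to 6.88 in KO1 and 2.11 to 2.96 in KO2. The part of these markers in the *Cdh5* values was not tested.

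The remaining members lack the catenin-binding tail. *Cdh17*, LI-cadherin, is known from liver and intestine and lies on chromosome 4. It had 543, 535 and 677 CPM in ctrl, 0.883, 0.761 and 0.287 in KO1 and 1.06, 1.12 and 0.961 in KO2. The clone libraries lay far below ctrl without overlap, at 0.110% and 0.179% of its mean level. The level was 896-fold lower in KO1 (log2 fold change -9.81 ± 0.39, edgeR adjusted p = 1.1e-07) and 558-fold lower in KO2 (-9.13 ± 0.38, adjusted p = 2.0e-07). KO1 libraries all lay below KO2 libraries, but the difference did not pass the test (-0.68 ± 0.31, adjusted p = 0.11). *Cdx2*, a transcription factor of intestinal epithelium, went from 17.7 CPM in ctrl to 0.00348 in KO1 and 0 in KO2. Of the 4 tested intestinal markers 3 were lower in both clones, beside 19.4% of all tested genes. The intestinal list summed to 268 to 369 CPM in ctrl, 3.31 to 8.65 in KO1 and 1.77 to 1.97 in KO2. Markers so low in the clones could pass the filter on low counts through ctrl alone, which favours calls of lower. The part of these markers in the *Cdh17* result was not tested.

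*Cdh16*, KSP-cadherin of kidney tubules, was the epithelial cadherin with the highest remaining level per kilobase of summed exons in both clones, while with the coding length *Cdh6* lay above it in KO2 (9.63 against 8.91 CPM per kb) with overlap. It had 302, 277 and 396 CPM in ctrl, 34.3, 26.7 and 55.5 in KO1 and 26.8, 27.5 and 12.3 in KO2. Ctrl stood apart and the clones overlapped. It was 8.37-fold lower in KO1 (log2 fold change -3.07 ± 0.36, edgeR adjusted p = 7.7e-05) and 14.6-fold lower in KO2 (-3.87 ± 0.38, adjusted p = 2.8e-05), and the clones did not differ past the threshold (0.81 ± 0.34, adjusted p = 0.089). Of the 7 kidney tubule markers *Slc34a1* was at 0 in every group and *Umod* at 0 in the clones, while *Pax2* was at 89.8 CPM in ctrl, 155 in KO1 and 134 in KO2. The marker sum, nearly all of it *Pax2*, was 58.3 to 121 CPM in ctrl, 151 to 163 in KO1 and 134 to 139 in KO2. Of the 4 tested, 2 were higher and 2 lower in the clones together, 2 and 1 in KO1 and 1 and 2 in KO2. In the same comparisons 43.0%, 59.9% and 51.4% of all tested genes were called in either direction. The part of the kidney markers in the *Cdh16* result was not tested.

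*Cdh13*, T-cadherin, is held to the membrane by a lipid anchor and marks vascular and muscle cells. It had 21.6, 13.3 and 40.5 CPM in ctrl, 10.4, 8.80 and 16.8 in KO1 and 24.4, 25.6 and 19.5 in KO2. Both clones overlapped with ctrl, and KO1 lay below KO2 without overlap. It was 2.10-fold lower in KO1 (log2 fold change -1.07 ± 0.38, edgeR adjusted p = 0.035) and at -0.12 ± 0.38 in KO2 (adjusted p = 0.82), and the difference between the clones was -0.95 ± 0.38 (adjusted p = 0.076). The KO1 call rested on single libraries, since it was lost without ctrl replicate 3 (-0.56, adjusted p = 0.15), KO1 replicate 1 (adjusted p = 0.085) or KO1 replicate 2 (adjusted p = 0.11). The difference between the clones passed the threshold without ctrl replicate 2 (adjusted p = 0.028), ctrl replicate 3 (0.026) or KO1 replicate 3 (0.038), and also with DESeq2 (0.039), without a filter on low counts (0.033) and with 6 libraries only (0.020).

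**Figure D2:**
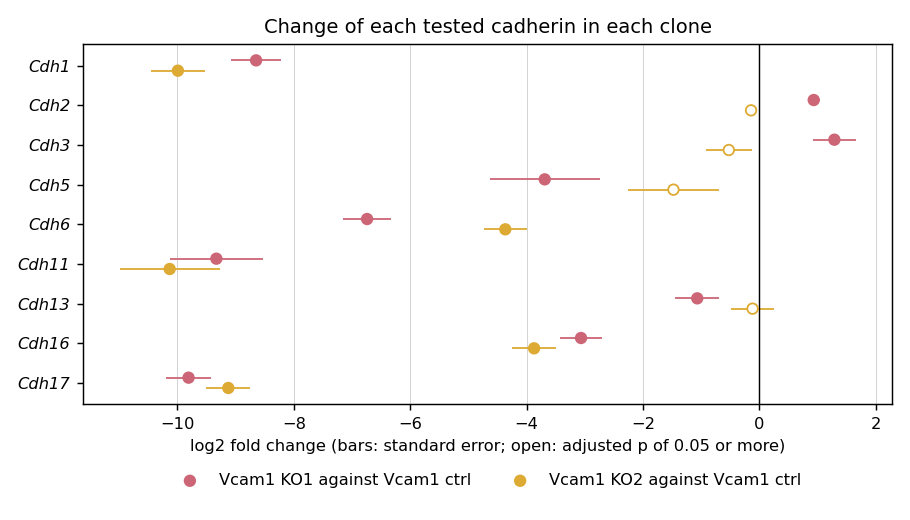
The log2 fold change of each tested cadherin against *Vcam1* ctrl in each clone, with its standard error as the bar; filled points passed the adjusted p threshold of 0.05. *Cdh1*, *Cdh11* and *Cdh17* lie near -9 to -10 in both clones, *Cdh16* near -3 to -4, *Cdh2* and *Cdh3* above 0 in KO1 alone; the *Cdh11* values rest on 10 and 5 clone counts.

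To compare cadherins with each other, levels were divided by gene length, the summed exon length of each gene in kilobases (kb). In ctrl the order was *Cdh17* (131 ± 17.8 CPM per kb), *Cdh1* (116 ± 33.6), *Cdh16* (85.7 ± 16.5), *Cdh6* (52.2 ± 1.70), *Cdh2* (7.31 ± 0.387), *Cdh11* (3.42 ± 1.91), *Cdh13* (2.24 ± 1.24), *Cdh5* (0.118), *Cdh3* (0.0506) and *Cdh4*. *Cdh17* and *Cdh1* overlapped, as did *Cdh1* and *Cdh16*, and *Cdh11* and *Cdh13*, while the other neighbours in that order did not. N-cadherin was thus the fifth in ctrl, with 1.86% of the summed level of the 10.

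In KO1 the order was *Cdh2* (13.9 ± 1.26 CPM per kb), *Cdh16* (10.2 ± 3.93), *Cdh13* (1.07 ± 0.375), *Cdh6* (0.486), *Cdh1* (0.292), *Cdh17* (0.144) and *Cdh3* (0.124), followed by *Cdh5*, *Cdh11* and *Cdh4*. *Cdh2* and *Cdh16* overlapped, as did *Cdh6* and *Cdh1*, *Cdh17* and *Cdh3*, *Cdh5* and *Cdh11*, and *Cdh11* and *Cdh4*. In KO2 it was *Cdh2* (6.61 ± 0.452), *Cdh16* (5.85 ± 2.27), *Cdh6* (2.53 ± 0.538), *Cdh13* (2.06 ± 0.289), *Cdh17* (0.234) and *Cdh1* (0.115), followed by *Cdh5*, *Cdh3*, *Cdh11* and *Cdh4*. There *Cdh2* and *Cdh16* overlapped, as did *Cdh6* and *Cdh13*, *Cdh5* and *Cdh3*, and *Cdh11* and *Cdh4*.

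The summed level of the 10 cadherins was 398 ± 69.5 CPM per kb in ctrl, 26.3 ± 2.84 in KO1 and 17.5 ± 2.68 in KO2, or 6.61% and 4.39% of ctrl. *Cdh2* made up 53.7% ± 10.2 of that smaller sum in KO1 and 38.8% ± 9.35 in KO2, and *Cdh16* 38.2% ± 10.4 and 32.6% ± 8.76. *Cdh2* was thus first in KO2 by its share of the sum although its own level there was 0.905 times that of ctrl. Which of these leads depends on the length used. With summed exons *Cdh2* was first in 2 of 3 KO1 and 1 of 3 KO2 libraries, and with the longest transcript or the coding length in 3 of 3 of each. The log2 ratio of *Cdh2* to *Cdh1* per kb was -3.74, -3.75 and -4.38 in ctrl, 5.55, 6.09 and 5.14 in KO1 and 5.35, 5.50 and 7.06 in KO2, so that the ratio changed sign in every clone library. In KO2 it did so with *Cdh2* at 0.905 times its ctrl level.

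**Figure D3:**
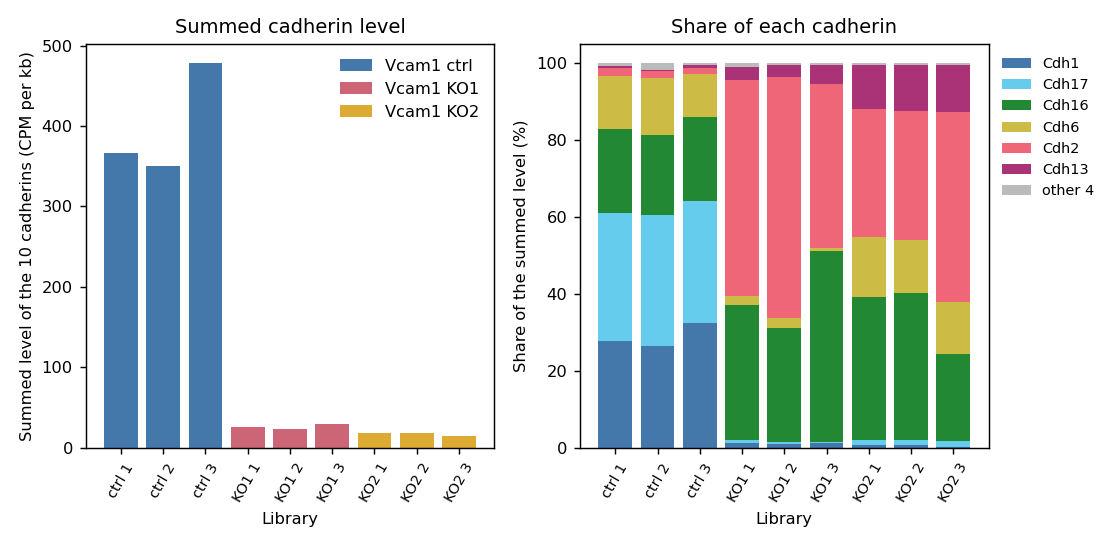
Left, the summed level of the 10 cadherins in CPM per kb of summed exon length in each library; right, the share of each cadherin in that sum in percent. The sum falls from between 351 and 478 in ctrl to between 23.8 and 29.4 in KO1 and between 14.4 and 19.1 in KO2, and *Cdh2* and *Cdh16* fill most of what is left.

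By class, the type I group (*Cdh1* to *Cdh4*) went from 124 ± 33.8 CPM per kb in ctrl to 14.4 ± 1.21 in KO1 and 6.76 ± 0.398 in KO2. The type II group with VE-cadherin (*Cdh5*, *Cdh6* and *Cdh11*) went from 55.7 ± 2.02 to 0.501 ± 0.242 and 2.57 ± 0.543. The members without a catenin-binding tail (*Cdh13*, *Cdh16* and *Cdh17*) went from 219 ± 35.4 to 11.5 ± 4.25 and 8.15 ± 2.57, and held 55.0%, 42.7% and 45.8% of the sum in ctrl, KO1 and KO2. All 3 class sums were lower in every clone library than in every ctrl library. The ctrl sums of type I and type II were mostly *Cdh1* (116 CPM per kb) and *Cdh6* (52.2). Not every member fell, since *Cdh2* and *Cdh3* were higher in KO1 and *Cdh2*, *Cdh3* and *Cdh13* did not pass the test in KO2.

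Of the 10 genes, 6 lie on chromosome 8, *Cdh1* and *Cdh3* next to each other. The tested genes that start within 250 kb of *Cdh1* are *Zfp90* and *Tango6*, on either side of the pair. *Zfp90*, a zinc finger gene, averaged 11.3 ± 1.14 CPM in ctrl, and its log2 fold change was 0.59 ± 0.16 in KO1 (edgeR adjusted p = 0.0086) and -0.21 ± 0.16 in KO2 (adjusted p = 0.29). *Tango6* averaged 14.1 ± 1.85 CPM in ctrl, with 0.63 ± 0.17 in KO1 (edgeR adjusted p = 0.0085) and -0.06 ± 0.16 in KO2 (adjusted p = 0.77). Neither was lower past the threshold in a clone, and both differed between the clones (edgeR adjusted p = 0.0036 and 0.0095). *Smpd3*, a sphingomyelinase gene 173 kb before *Cdh3*, was lower in both clones, with 225 ± 41.3 CPM in ctrl, 4.03 ± 1.57 in KO1 and 3.58 ± 0.634 in KO2 (log2 fold change -5.80 and -5.98).

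**Figure D4:**
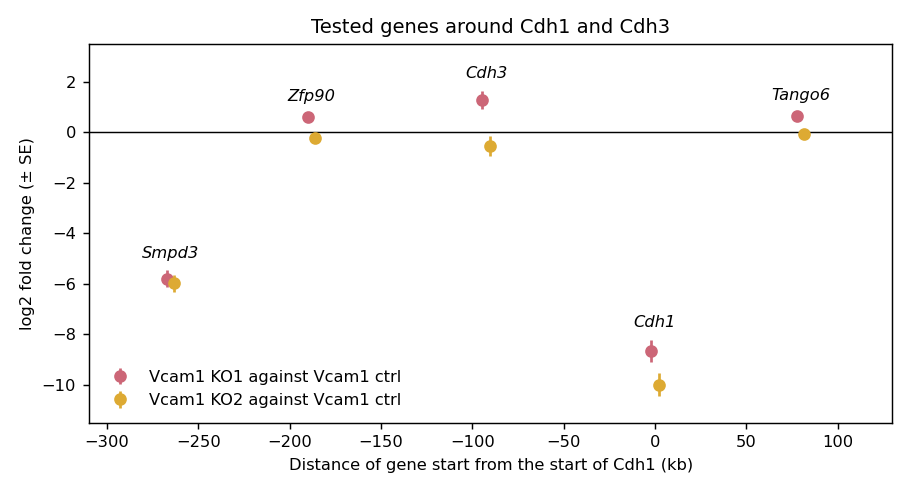
The log2 fold change against *Vcam1* ctrl (bars: standard error) of the tested genes around *Cdh1* and *Cdh3*, against the distance of each gene's start from that of *Cdh1* in kb. *Cdh1* and *Smpd3* lie far below 0 in both clones, and *Zfp90*, *Cdh3* and *Tango6* lie near 0 or above it, *Cdh3* highest at 1.29 in KO1.

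The genes whose profile over the 9 libraries was most like that of a cadherin were found as the smallest root mean square difference in log2 CPM relative to the ctrl mean, among 11586 genes. They were *Shroom2* (0.36), *Calml4* (0.50) and *Smim6* (0.54) for *Cdh1*, *Nrarp* (0.51), *Sdr39u1* (0.64) and *Shtn1* (0.64) for *Cdh11*, and *Nagpa* (0.10), *Nipa1* (0.11) and *Ctnnd1* (0.12) for *Cdh2*. In the clone libraries *Cdh11*, *Nrarp* and *Sdr39u1* had at most 11 counts and *Shroom2*, *Calml4* and *Smim6* at most 7. Their log2 values there thus depend on the prior count of 2, which limits what the likeness to *Cdh11* and *Cdh1* shows. *Cdh3* was under the level of 5 CPM that this search required.

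The catenins, which bind the tails of the classical cadherins, had log2 fold changes between -2.24 and 0.88 in the clones where they were tested. Of 10 listed, 7 were tested, and 0 were higher and 3 lower in the clones together, 1 higher and 2 lower in KO1, and 0 higher and 4 lower in KO2, where 43.0%, 59.9% and 51.4% of all tested genes were called in either direction. *Jup*, γ-catenin of adherens junctions and desmosomes, had 425, 340 and 575 CPM in ctrl, 98.3, 89.9 and 95.3 in KO1 and 118, 126 and 106 in KO2. The groups did not overlap, and *Jup* was lower in both clones (log2 fold change -2.24 and -1.93). *Ctnna1*, α-catenin, which links the complex to actin, averaged 547, 355 and 332 CPM and was lower in both (-0.62 and -0.72). *Ctnnb1*, β-catenin, averaged 865 in ctrl and 846 in KO1 (-0.03, edgeR adjusted p = 0.88) and was lower in KO2 at 634 (-0.45, adjusted p = 0.049).

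*Ctnnd1* encodes p120-catenin, which holds classical cadherins at the membrane. It had 337, 296 and 384 CPM in ctrl, 617, 692 and 558 in KO1 and 336, 329 and 321 in KO2. KO1 lay above both other groups, which overlapped, as for *Cdh2*. It was higher in KO1 (log2 fold change 0.88, edgeR adjusted p = 3.4e-04), at -0.04 in KO2 (adjusted p = 0.81), and the clones differed by 0.92 (adjusted p = 7.5e-04). Of the other catenins *Ctnnal1* was lower in KO2 (-0.84) and in the clones together (-0.61), *Arvcf* and *Pkp4* passed no test against ctrl, and *Ctnna2*, *Ctnna3* and *Ctnnd2* were too low to test. The summed catenin level was 1981 to 2877 CPM in ctrl, 2005 to 2093 in KO1 and 1466 to 1582 in KO2.

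Of 21 genes of the adherens junction scaffold, all tested, 2 were higher and 12 lower in the clones together, 4 and 13 in KO1 and 2 and 12 in KO2, with a median log2 fold change of -0.61 together. Over all tested genes 21.7% were higher and 21.2% lower together, 29.9% and 30.0% in KO1, and 25.3% and 26.1% in KO2. *Camsap3*, which anchors microtubules at the junction, was lower by -4.62 on the log2 scale, the receptor phosphatase gene *Ptprf* by -3.40 and *Plekha7*, a partner of p120-catenin, by -1.62. *Lima1*, an actin-binding partner of α-catenin, was higher by 1.67 and the phosphatase gene *Ptprm* by 1.05. Of 17 genes for cleavage and turnover of cadherins, 5 were higher and 3 lower together, 7 and 3 in KO1 and 8 and 3 in KO2, beside 43.0%, 59.9% and 51.4% of all tested genes called in either direction. The membrane protease gene *Mmp14* went from 195 CPM in ctrl to 1309 in KO1 and 484 in KO2 (log2 fold change 2.75 and 1.31), and *Numbl* and *Ncstn* were higher as well (1.45 and 0.78 together), while *Mmp3* (-4.61) and *Numb* (-0.66) were among those lower.

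Of 23 known repressors of *Cdh1* and their corepressors, 22 were tested, and 8 were higher and 5 lower in the clones together, 9 and 6 in KO1 and 9 and 5 in KO2, with a median log2 fold change of 0.05 together, beside 43.0%, 59.9% and 51.4% of all tested genes called in either direction. *Twist2* had 2.91, 4.26 and 2.29 CPM in ctrl, 23.6, 22.6 and 26.1 in KO1 and 19.8, 23.7 and 25.6 in KO2, without overlap with ctrl (log2 fold change 2.94 and 2.88). *Snai1*, the Snail repressor, had 10.2, 27.0 and 9.13 CPM, 37.4, 49.8 and 84.7, and 29.3, 35.7 and 62.5, and was higher in both clones (1.90 and 1.47). *Tcf4* was higher by 2.69 in the clones together and the corepressor gene *Ctbp2* lower by -0.55. Chosen after its values were seen, *Twist1* lay the other way from *Twist2*, at 3.44 CPM in ctrl, 0.0698 in KO1 and 0 in KO2, and *Snai2* was lower in KO2 alone among the tests against ctrl (-1.06, edgeR adjusted p = 0.037, against 0.65 and 0.15 in KO1), with a difference of 1.70 between the clones (adjusted p = 0.0065).

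Of 21 epithelial regulators, listed as known or proposed activators of *Cdh1* and of the epithelial state, 18 were tested, and 1 was higher and 13 lower in the clones together, 2 and 13 in KO1 and 3 and 13 in KO2, with a median log2 fold change of -2.72 together, beside 21.2%, 30.0% and 26.1% of all tested genes called lower. *Hnf4a*, the hepatocyte nuclear factor, had 208, 207 and 264 CPM in ctrl and 0 counts in all 6 clone libraries, so that it was at least 5179-fold lower against a limit of 3 counts per library. *Esrp1* and *Esrp2*, which direct epithelial splicing, averaged 7.16 and 19.7 CPM in ctrl and at most 0.0625 in a clone. *Foxa1* was the only one higher in the clones together, at 0.620 CPM in ctrl, 9.54 in KO1 and 12.4 in KO2 (log2 fold change 3.94 and 4.32). *Grhl2*, *Ovol1* and *Ovol2* were under 1 CPM in every group.

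**Figure D5:**
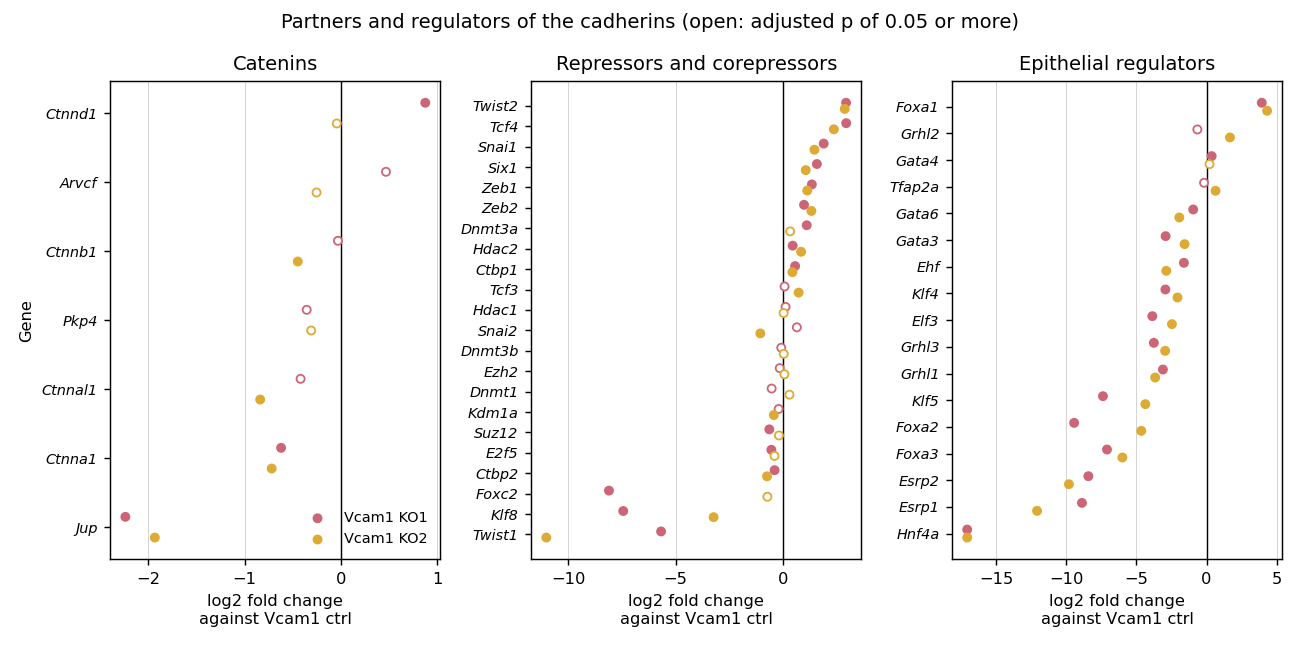
The log2 fold change against *Vcam1* ctrl of the tested catenins, repressors and corepressors of *Cdh1*, and epithelial regulators in KO1 and KO2, with 1 regulator not drawn; filled points passed the adjusted p threshold of 0.05 and each panel has its own axis. Catenins lie between -2.24 and 0.88, repressors on both sides of 0, and most epithelial regulators below it; the *Hnf4a* points have 0 clone counts and depend on the prior count.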

How the data were processed

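RNA of *Vcam1* ctrl, *Vcam1* KO1 and *Vcam1* KO2 cells was sequenced in stranded paired-end mRNA libraries, 3 per group, grouped by the labels' genotype. The authors pseudoaligned reads with kallisto 0.46.1 (per the labels, build mm10) and deposited estimated counts per gene symbol, without normalization; all were whole numbers and were used as counts. The step from transcripts to genes is not given in the sources used here. The study states that libraries came from different passages, but not which, so p-values measure the spread between these libraries.

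Counts were scaled with TMM, filtered with filterByExpr and tested with edgeR 4.0.16 (R 4.3.3, quasi-likelihood test, Benjamini-Hochberg over 17672 genes, threshold 0.05). KO1, KO2 and their difference came from 1 fit with 3 groups, both clones together from a fit with 2 groups. Alternatives were limma-voom 3.58.1, DESeq2 1.42.0, other scalings and filters, a test against a 2-fold change, 6 libraries only, averaged clone contrasts, other lengths, and leaving out each library. The model was also run on simulated data with fewer changed genes and smaller changes than the largest here. No result of that run is used.

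Named genes of each list were the 3 largest changes per direction past the threshold in both clones, with a mean of at least 5 CPM in a group. The catenins were exempt from that rule. Other genes named from the lists, such as *Sox9*, *Pax2*, *Lrat*, *Erg* and *Grhl2*, were picked outside it. Some genes and alleles are not reported here. Members and lists were chosen with earlier results of these data known. Lengths and positions are from GENCODE vM21 on GRCm38, another release than the one used for counting; promoters are from RefSeq (GRCm38.p6). At 53415907 to 125223073 counts per library, 3 counts, the detection limit, equal 0.0239 to 0.0553 CPM. Python 3.11.15 and matplotlib 3.10.9 drew the figures.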

Additional observations from a re-analysis of the deposited data

Results flagged for a closer look

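The clones differed from each other in 4 of the 9 tested cadherins, by edgeR's quasi-likelihood test of the difference itself with Benjamini-Hochberg adjustment. That is near the share over all tested genes, 38.7%, so the number of calls is not particular to the cadherins. KO1 was higher than KO2 by 1.34 on the log2 scale for *Cdh1*, by 1.08 for *Cdh2* and by 1.81 for *Cdh3*, and KO1 was lower, at -2.37, for *Cdh6*. KO1 and KO2 libraries did not overlap for any of these genes. They were picked by the test on the same libraries, so this adds no support. Of all tested genes, 28.6% lay above and 26.2% below in KO1 without overlap. For *Cdh1* both clones lay far below ctrl, so that the difference concerns 1.34 ± 0.316 against 0.525 ± 0.252 CPM (SD, n = 3 each), and it did not pass the threshold with limma-voom (adjusted p = 0.071).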

How the results depend on the processing

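No paired analysis was possible because the labels give no replicate numbers, and replicates were numbered in label order. *Cdh1*, *Cdh6*, *Cdh11*, *Cdh16* and *Cdh17* kept direction and call in KO1, KO2 and both together under every alternative run. The members called ranged without single libraries from 7 to 9 in KO1, 5 to 6 in KO2 and 3 to 5 between the clones, and stayed at 5 together. Against a 2-fold change, 1 member was called between the clones, where 4 were called otherwise. The sign of *Cdh13* turned without ctrl replicate 3, to 0.0040 together and 0.40 in KO2, and without single libraries it ranged from -0.86 to 0.0040 together and from -0.45 to 0.40 in KO2. The sign of *Cdh11* between the clones turned to -0.40 with limma-voom, and without single libraries ranged from -1.79 to 1.53; none of these values of *Cdh13* and *Cdh11* passed the test, and the cause was not tested. The test against a 2-fold change also took the calls of *Cdh2*, *Cdh3* and *Cdh13* in KO1. *Cdh5* passed the test together with limma-voom (adjusted p = 0.037) and averaged contrasts (0.0098), and *Cdh13* in KO1 did not with 6 libraries (0.059). Over all genes that demand for a 2-fold change gave 2973, 4680, 3712 and 1782 calls together, in KO1, in KO2 and between the clones, against 7591, 10586, 9087 and 6834. The median of all genes was 0.11 without a filter (together) and 0.11 with upper-quartile scaling (between the clones). With another gene length, levels per kb and *Cdh2* to *Cdh1* ratios moved by more than 1 SD between libraries for 41 values. Members at a few counts (*Cdh3*, *Cdh4*, *Cdh5*) are limited by depth.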

Other observations

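Beyond the 10 cadherins, 7 of 13 other classical and related cadherins were tested. Of these, 1 was higher and 3 lower in the clones together, 1 and 4 in KO1 and 2 and 4 in KO2. In the same comparisons 43.0%, 59.9% and 51.4% of all tested genes were called in either direction. *Cdh15*, M-cadherin of muscle, went from 5.51 CPM in ctrl to 0.0249 in KO1 and 0.356 in KO2. Chosen after its values were seen, *Cdh19*, a cadherin of glial precursors, had 2.52, 2.18 and 1.01 CPM in ctrl, 0.0150, 0 and 0.0160 in KO1 and 6.90, 5.97 and 3.52 in KO2. It was lower in KO1 and higher in KO2, and the clones differed (log2 difference -9.00, edgeR adjusted p = 2.3e-05).

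Of 30 genes of the wider superfamily, 25 were tested, and 5 were higher and 8 lower in the clones together, 6 and 10 in KO1 and 7 and 12 in KO2, beside 43.0%, 59.9% and 51.4% of all tested genes called in either direction. The protocadherin gene *Pcdh18* had 2.66, 4.39 and 1.05 CPM in ctrl, 66.2, 51.5 and 63.2 in KO1 and 56.6, 59.4 and 57.9 in KO2, without overlap with ctrl. *Pcdh19* (log2 fold change 3.49 together) and *Pcdh7* (2.49) were higher as well. *Cdhr2* and *Cdhr5*, which link the microvilli of the brush border, averaged 53.2 and 59.1 CPM in ctrl and at most 0.105 in a clone, and *Celsr1*, of planar cell polarity, went from 177 CPM to 0.173 in KO1 and 3.64 in KO2.

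Of the marker lists not yet given, all 6 tested hepatocyte genes were lower in the clones together, 5 in KO1 and 6 in KO2. Over all tested genes 21.2%, 30.0% and 26.1% were lower. The hepatocyte list summed to 631 to 1008 CPM in ctrl and at most 3.03 in a clone library. Genes so low in the clones could pass the filter on low counts through ctrl alone. The number called lower was thus largely fixed in advance and adds no support. Of the 9 tested biliary genes 6 were lower and 1, *Spp1*, higher in the clones together, beside 21.2% and 21.7% of all tested genes. The haematopoietic list summed to 7.71 to 21.1 CPM in ctrl, 5.24 to 8.46 in KO1 and 7.13 to 9.59 in KO2, and *Tyrobp* was at 0 in every library. Of its 4 tested genes 3 were lower in the clones together, beside 21.2% of all tested genes.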
